A study of Mus musculus with 18 samples.

Results

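Interferon-stimulated genes are the transcripts that cells switch on in response to interferons. A list of 33 of them, from the transcription factor Irf7 to the ubiquitin ligase Herc6, was followed in sorted mouse natural killer (NK) cells. The members were taken by name from a fixed list, not by a rule on their measured values, out of 41388 genes in the deposited tables. The list was drawn up with earlier results of these data known. All 33 passed the filter on low counts. RNA was sequenced from splenic NK cells of C57BL/6 mice of 8 to 12 weeks, in 6 groups of 3 libraries each, to find which genes the T-box transcription factor Eomes controls at successive steps of NK cell maturation. The deleted mice (KO) carried Ncr1-iCreERT2 KI/WT, Rosa26YFPLSL and Eomesfl/fl and received tamoxifen. Their Cre recombinase is made from the Ncr1 gene, which is expressed in NK cells and some other innate lymphocytes, so Eomes is removed in cells where this gene was active during treatment. The other mice are labelled WT with no further genotype, so whether they carried Cre or the reporter is not stated. A treatment of 3 days with tamoxifen is described for all samples without separating the genotypes. Cells were purified from pooled spleens and sorted into 3 steps of maturation. Cells of stage II, the least mature, are CD27+CD11b-, those of stage III carry both markers (CD27+CD11b+), and those of stage IV, the most mature, are CD27-CD11b+. The work was done in 3 separate experiments, and the labels do not tie replicate numbers to them, nor give the number of mice in a pool.

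Type I interferons bind a receptor made of Ifnar1 and Ifnar2, whose kinases Jak1 and Tyk2 phosphorylate Stat2. With Irf9, Stat2 is part of the complex ISGF3, which binds a DNA motif called the interferon-stimulated response element and switches on antiviral genes, among them Irf7, which amplifies interferon production. Products of these genes detect viral RNA, degrade it, block its translation or feed back on the receptor. In NK cells type I interferon is known to raise cytotoxicity, and most cells keep a low level of these transcripts without infection.

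The libraries held 18684350 to 28365837 counts each. Eomes, the deleted gene, was lower in each KO library than in each WT library of the same stage, with CPM (a gene's count relative to the library's total, here after TMM scaling, the trimmed mean of M values) of 51.4 to 71.1 against 168 to 208 at stage II, 152 to 181 against 255 to 282 at stage III and 86.0 to 119 against 244 to 280 at stage IV. In KO stage III, 14824 and 16536 genes were detected in replicates 1 and 3 against 21454 in replicate 2. Replicate 2 stood apart in another way. Its 10 NK cell markers summed to 23640 CPM, against 36641 and 43571 in replicates 1 and 3 and 31910 to 34481 in WT stage III. The quality weights of limma's voom, low for libraries far from their fitted values, were 0.17, 0.16 and 0.32 in replicates 1, 2 and 3, the lowest of all libraries. The most genes were detected in replicate 1 of WT stage II (29859) and replicate 3 of KO stage IV (27912). The WT libraries also differed among themselves. Xist, a transcript of female cells, stood at 34.3 to 41.9 CPM in replicate 1 of the WT groups, at 0 to 0.648 in WT replicates 2 and 3, and at 7.23 to 34.5 in all KO libraries. Ncr1, the gene that carries Cre in the KO mice, followed the same division, with 2040 to 2090 CPM in WT replicate 1, 3570 to 4190 in WT replicates 2 and 3, and 1630 to 2220 in KO. In replicates 2 and 3 the sex of the pools and the level of Ncr1 therefore cannot be told apart from the Eomes deletion, whereas in replicate 1 both genotypes expressed Xist (18.8 to 33.4 CPM in KO) and had like levels of Ncr1 (2160 to 2220 CPM in KO).

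Together the 33 genes made up 1501 to 1702 CPM in WT stage II, 1521 to 1688 in WT stage III and 1217 to 1274 in WT stage IV. Per kilobase of exon, Irf7 and Ifi35, which encodes an adaptor induced by interferon, had the highest levels in WT stage II, with means of 75.8 and 75.6 CPM per kilobase. Rtp4, which encodes a chaperone of membrane receptors, followed with 44.8, next to Usp18 with 44.6 and Bst2 with 43.4. Among the lowest were Rsad2 with 1.36, Mx2 with 0.284 and Oas2 with 0.0993 CPM per kilobase. Oas2 had 0 to 24 counts in a library, and its fold changes carry standard errors of 1.34 or more, so no statement about it is made. In WT stage IV Ifi35 (73.3) and Irf7 (71.0) were still the highest, while Oas3 had fallen to 0.350 and Ifi44 to 0.184 CPM per kilobase. Adjacent genes in these orders, such as Irf7 and Ifi35 in WT stage II or Rtp4 and Usp18, differed by less than the spread between libraries.

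Maturation in WT cells was read from stage IV against stage II. Of the 33 genes 16 fell and 1, Mx1, rose, where 9.82% of all 14156 tested genes fell and 5.26% rose. The median log2 fold change was -0.71 for the 33 genes and -0.02 for all tested genes. In 19 of the 33 members each stage IV library was below each stage II library, which held for 22.1% of all genes, and in 2 the reverse held (20.6% of all genes). Bulk RNA cannot tell fewer cells that carry a transcript from less of it per cell. The plot of library values by stage shows the members discussed first.

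**Figure D1:**
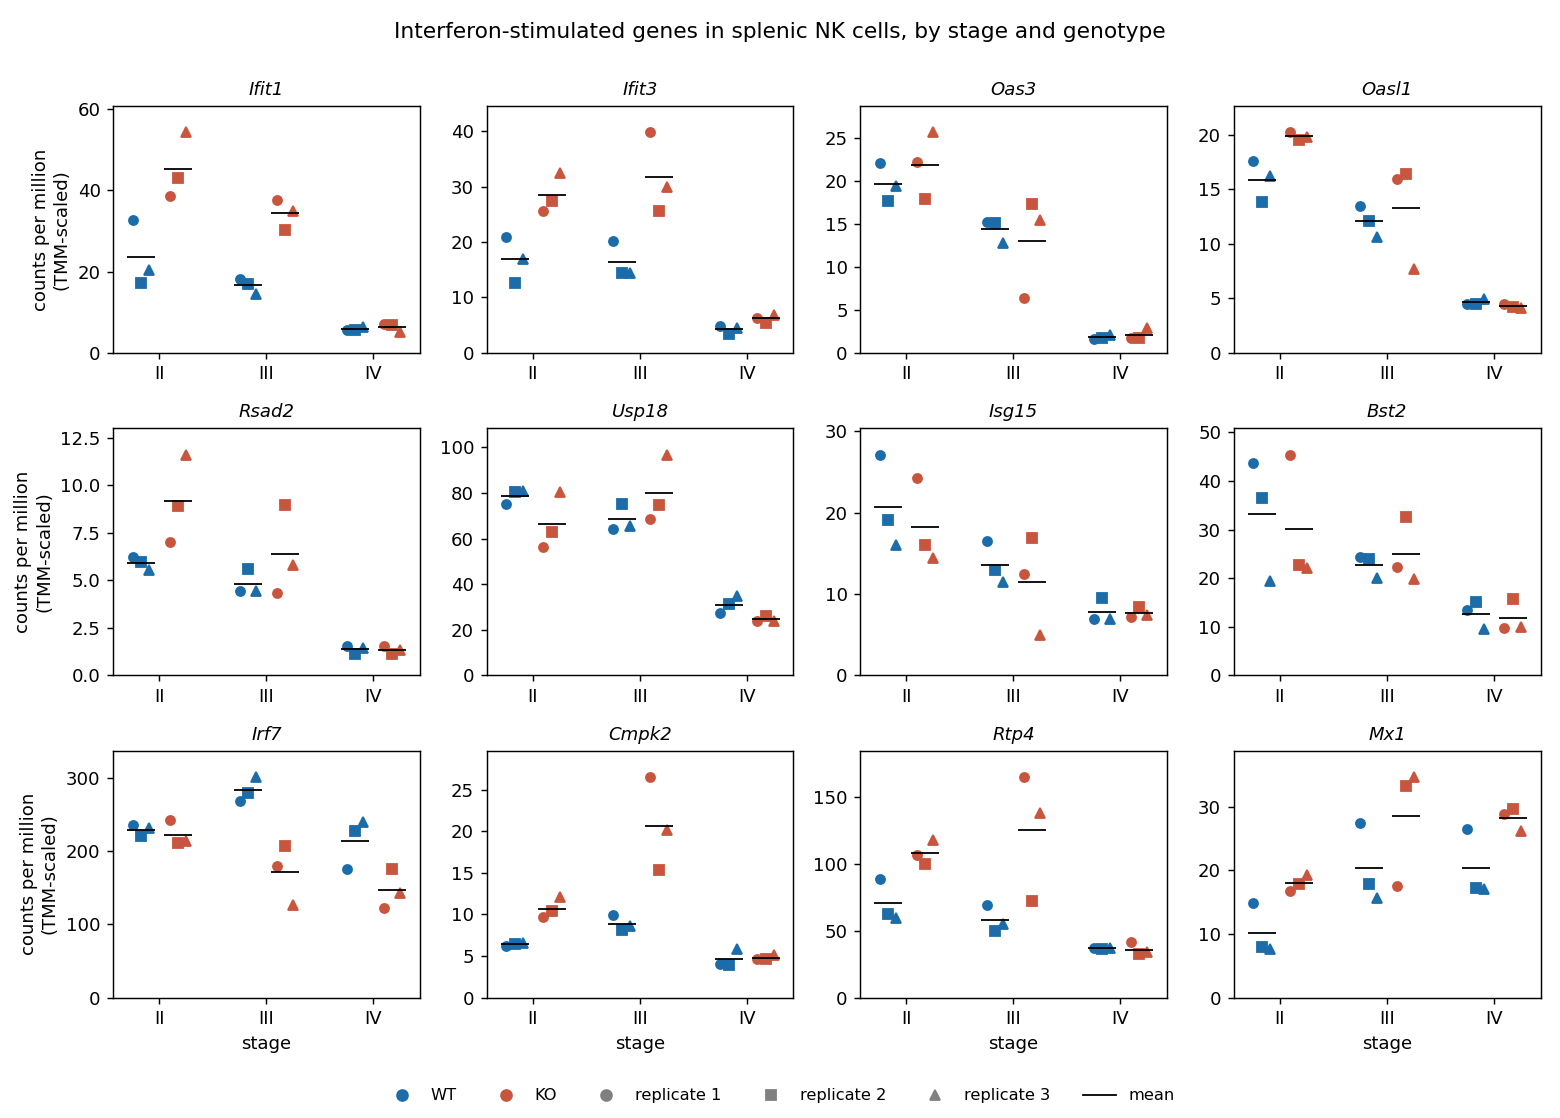
CPM after TMM scaling (linear axes from 0) of 12 interferon-stimulated genes, by maturation stage, in WT (blue) and KO (red) libraries, with a symbol for each replicate number and a line for the mean of 3 libraries. Ifit1, Ifit3, Oas3, Oasl1, Rsad2 and Usp18 were lower at stage IV than at stage II in all libraries of both genotypes, and each KO library lay above each WT library for Ifit1, Ifit3, Cmpk2 and Rtp4 at stages II and III.

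The IFIT proteins bind viral RNA and keep it from being translated, and their genes lie next to each other on chromosome 19. Ifit1 (ENSMUSG00000034459, chr19:34640871-34650009, GRCm38) had 32.7, 17.3 and 20.4 CPM in the WT stage II libraries and 5.66, 5.63 and 6.33 in WT stage IV. It fell by 2.004 ± 0.22 on the log2 scale (SE, n = 3 libraries a group, 4.01-fold, adjusted p = 7.33e-06). The lowest stage II library, replicate 2, was still well above all stage IV libraries. Ifit3 gave 21.0, 12.7 and 17 CPM at stage II and 4.88, 3.46 and 4.53 at stage IV, a fall by 1.98 ± 0.23 (3.95-fold, adjusted p = 1.12e-05), again without overlap. Its reads may be shared with the near-identical Ifit3b, since the sources used here do not give the handling of reads that match several genes. Ifit2 did not follow its neighbours: it had 30.8, 24.7 and 24.9 CPM at stage II and 34.2, 34.1 and 27.3 at stage IV, overlapping groups with a log2 fold change of 0.25 ± 0.21 (adjusted p = 0.517).

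The OAS enzymes make a short RNA signal that activates the nuclease RNase L, and the OAS-like proteins share their fold. Oas3 showed the steepest fall of all members that passed the test in WT cells, from 22.1, 17.7 and 19.4 CPM at stage II to 1.60, 1.75 and 2.14 at stage IV (fell by 3.43 ± 0.33 on the log2 scale, 10.8-fold, adjusted p = 1.28e-06). Oas1a went from 34.5, 27.6 and 27.3 to 11.3, 7.96 and 6.98 CPM (fell by 1.77 ± 0.23, 3.41-fold, adjusted p = 4.03e-05). It belongs to a cluster of close copies, so the split of its reads is uncertain. Oasl1, which restrains the translation of Irf7, went from 17.6, 13.8 and 16.2 to 4.51, 4.50 and 4.93 CPM (fell by 1.78 ± 0.23, 3.42-fold, adjusted p = 3.53e-05). In these 3 genes the stage II and stage IV libraries were far apart. Oasl2 ran from 5.22 to 6.75 CPM at stage II and from 1.93 to 4.54 at stage IV (fell by 1.03 ± 0.31, adjusted p = 0.0307). The Oasl2 call ended in 8 of the 18 fits that left out 1 library (WT stage II replicate 1, 2 or 3, WT stage III replicate 2 or 3, WT stage IV replicate 1 or 3, KO stage II replicate 2), with log2 fold changes from -1.09 to -0.76.

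Among the effectors, Rsad2 encodes viperin, an enzyme that makes a chain-terminating nucleotide, and Cmpk2 lies beside it and supplies its substrate. Rsad2 had 6.20, 5.98 and 5.54 CPM in WT stage II and 1.52, 1.13 and 1.44 in WT stage IV (fell by 2.12 ± 0.29 on the log2 scale, 4.33-fold, adjusted p = 6.62e-05). Isg20, a nuclease that digests RNA, went from 9.51, 7.70 and 7.16 to 3.37, 2.96 and 1.89 CPM (fell by 1.56 ± 0.26, 2.96-fold, adjusted p = 4.63e-04). Bst2, or tetherin, which holds budding virus particles at the cell surface, went from 43.8, 36.4 and 19.3 to 13.5, 15.1 and 9.52 CPM (fell by 1.39 ± 0.33, 2.61-fold, adjusted p = 0.00762). None of these genes had overlapping groups, although the stage II values of Bst2 were spread widely, and its call ended without WT stage IV replicate 3 (-1.18, adjusted p = 0.0591). Cmpk2 was at -0.48 ± 0.21 (adjusted p = 0.144). Mx1, a gene of the dynamin-like GTPase family, was the member that rose, from 7.70 to 14.9 CPM at stage II to 17.1 to 26.6 at stage IV (0.99 ± 0.29, 1.99-fold, adjusted p = 0.0302). Its RNA level does not show whether a working protein is made. That call ended without WT stage II replicate 2 (0.90) or 3 (0.88) or WT stage IV replicate 1 (0.80). Its relative Mx2, annotated as a polymorphic pseudogene, had 3 to 49 counts at stage II and 2 to 4 at stage IV (fell by 2.93 ± 0.80, adjusted p = 0.0191). Without WT stage II replicate 1, which holds 49 of the counts, Mx2 was at -1.70 (adjusted p = 0.17), and its call also ended without WT stage IV replicate 1 (-3.07), 2 (-2.84) or 3 (-2.73).

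The modifiers of the response divided. Usp18 removes the ubiquitin-like protein Isg15 from its targets and shuts down the type I receptor. It had 75.4, 80.3 and 80.9 CPM in WT stage II and 27.1, 31.3 and 34.7 in WT stage IV (fell by 1.35 ± 0.15 on the log2 scale, 2.55-fold, adjusted p = 1.04e-05). Isg15 itself went from 27.1, 19.1 and 16.0 to 6.85, 9.51 and 6.88 CPM (fell by 1.42 ± 0.34, 2.68-fold, adjusted p = 0.008). Herc6, the ligase that attaches Isg15 in mice, went from 49.2, 46.1 and 38.8 to 25.7, 32.7 and 27.0 CPM (fell by 0.65 ± 0.15, 1.57-fold, adjusted p = 0.00594). The 3 genes of this conjugation system thus fell without overlap, the call of Herc6 ending without WT stage IV replicate 1 (-0.55) or 3 (-0.58).

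None of the 3 transcription factors of the response was called in WT cells. Irf7 had 235, 221 and 231 CPM at stage II, 269, 279 and 301 at stage III and 176, 227 and 240 at stage IV, and the stage IV change was -0.10 ± 0.17 (adjusted p = 0.773). Stat2 had 47.0, 38.0 and 45.1 CPM at stage II and 59.6, 53.7 and 58.1 at stage IV, which did not overlap, but at 0.40 ± 0.31 the change did not pass the test (adjusted p = 0.462). Irf9 had 135, 119 and 118 CPM at stage II and 128, 109 and 104 at stage IV (-0.13 ± 0.13, adjusted p = 0.593). A p above the threshold does not show that these levels were equal. The remaining modifiers, Ifi35, the ADP-ribosyltransferases Parp9 and Parp14 and the ubiquitin ligase Trim30a, lay between -0.27 and 0.02 on the log2 scale and none was called.

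None of the 5 sensors of viral nucleic acid was called in WT cells. Zbp1, which senses Z-form nucleic acid, was at -0.45 ± 0.15 (adjusted p = 0.0553) and Ifih1, the RNA helicase MDA5, at -0.71 ± 0.26 (adjusted p = 0.0735). The kinase Eif2ak2 (PKR) was at -0.55 ± 0.25 (adjusted p = 0.171). The helicase Ddx58 (RIG-I) was at -0.30 ± 0.15 (adjusted p = 0.208), and Dhx58 (LGP2), which tunes both helicases, at -0.08 ± 0.21 (adjusted p = 0.858).

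Of the 4 other members 3 fell. Ifi27l2a, a small membrane protein, had 3.40, 2.20 and 2.48 CPM (46 to 75 counts) in WT stage II and 0.616, 0.375 and 0.149 (3 to 15 counts) in WT stage IV (fell by 2.79 ± 0.56, 6.91-fold, adjusted p = 0.00227). Ifi44 had 10.4, 7.61 and 8.46 CPM at stage II and 1.11, 0.917 and 1.35 at stage IV (fell by 2.98 ± 0.78, 7.87-fold, adjusted p = 0.0145). Its groups were far apart, yet the call ended without WT stage IV replicate 1 (-2.93), 2 (-2.82) or 3 (-3.08). Rtp4 went from 89.0, 62.5 and 59.8 to 37.3, 36.4 and 37.0 CPM (fell by 0.94 ± 0.23, 1.91-fold, adjusted p = 0.0109). The 3 stage IV libraries of Rtp4 were nearly alike, and its call ended without WT stage II replicate 1 (-0.74) or WT stage IV replicate 2 (-0.89). Xaf1, a promoter of apoptosis, had 70.0, 69.4 and 69.8 CPM at stage II and 71.9, 69.2 and 66.9 at stage IV, at -0.01 ± 0.15 (adjusted p = 0.973).

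More members were called between stages III and IV than between II and III. From WT stage II to III, 1 of the 33 genes fell and 0 rose, where 1.98% of all genes fell and 0.989% rose. The one that fell was Oas1a (by 0.85 ± 0.22 on the log2 scale, adjusted p = 0.0486), and this call ended in 14 of the 18 fits that left out 1 library, with log2 fold changes from -0.86 to -0.65. From WT stage III to IV, 9 fell and 0 rose, where 2.41% of all genes fell and 0.763% rose, with a median of -0.65 for the members against -0.11 in the earlier step. Their log2 fold changes were -2.98 ± 0.32 for Oas3 (adjusted p = 3.24e-05), -1.93 ± 0.23 for Ifit3, -1.82 ± 0.29 for Rsad2, -1.60 ± 0.31 for Oasl2, -1.496 ± 0.22 for Ifit1, -1.37 ± 0.23 for Oasl1, -1.14 ± 0.15 for Usp18, -0.95 ± 0.21 for Cmpk2 and -0.92 ± 0.23 for Oas1a. The calls of Cmpk2 and Oas1a in this step ended in 4 and 5 of the fits without 1 library: Cmpk2 without WT stage III replicate 1 or 3 or WT stage IV replicate 1 or 2 (-0.97 to -0.85), and Oas1a without WT stage III replicate 1 or 2, WT stage IV replicate 2 or 3 or KO stage IV replicate 2 (-1.003 to -0.63). Both steps share the stage III libraries, and the difference between the steps was not tested.

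Transcripts on marker lists of other cell types also moved with stage. The ILC1 list (9 markers of innate lymphoid cells of type 1) had a summed level that went from 683 to 1141 CPM in WT stage II to 53.2 to 63.2 in stage III and 24.3 to 31.3 in stage IV, and all 9 were called lower at stage IV than at II. The 11 B cell markers summed to 511 to 672, 26.8 to 47.3 and 12.4 to 41.9 CPM, most of it Cd74 and H2-Aa at stage II, with Pax5 at 0.181 CPM or less in WT libraries. The 12 T cell markers summed to 811 to 1213, 472 to 862 and 263 to 436 CPM. The 8 markers of plasmacytoid dendritic cells, the main producers of type I interferon, summed to 99.5 to 119, 72.6 to 85.4 and 61.9 to 77.4 CPM, with Siglech at 1.45 CPM or less in WT libraries. The 14 myeloid markers summed to 449 to 509, 582 to 656 and 366 to 438 CPM. Gene by gene, all 7 tested plasmacytoid dendritic cell markers had a negative log2 fold change from WT stage II to IV (median -3.47, 2 called lower). Called lower were also 4 of 9 tested B cell markers (median -1.83), 8 of 10 T cell markers (-3.34) and 1 of 11 myeloid markers (0.06). Of all genes 9.82% were called lower. Whether other cells were present in the libraries, and the part of these transcripts in the members' change, was not tested.

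The motif GAAANNGAAA, the core of the interferon-stimulated response element, was searched on both strands in the 250 bases before each start site in the RefSeq promoter table (GRCm38.p6), with overlapping matches counted. Of the members 23 were matched in that table by symbol, and 9 of them (39.1%) held the motif, against 936 of 27025 genes (3.46%). It was found in 7 of the 12 matched members that fell in WT stage IV and in 2 of the 11 others. Oasl1, Oasl2, Isg20, Ifi44 and Herc6 fell without a match, while Stat2 and Trim30a held a match and did not fall. Mx1, Mx2, Oas2, Usp18, Rtp4, Zbp1, Ifi27l2a, Dhx58, Parp9 and Parp14 were not matched. Of the members printed here 5 fell with maturation and were chosen among those that hold the motif. Ifit2, which did not fall, is printed so that the neighbours Ifit1, Ifit2 and Ifit3 can be compared. This choice does not show how the motif and the fall go together. The stretches are the 200 bases before the start site. Each is given 5′ to 3′ on the strand of the gene, and capitals mark the motif or its reverse, TTTCNNTTTC.
Ifit1: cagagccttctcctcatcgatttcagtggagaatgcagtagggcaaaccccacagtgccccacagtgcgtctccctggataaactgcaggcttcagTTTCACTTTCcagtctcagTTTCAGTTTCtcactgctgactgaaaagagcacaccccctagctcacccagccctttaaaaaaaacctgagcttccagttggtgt
Ifit3: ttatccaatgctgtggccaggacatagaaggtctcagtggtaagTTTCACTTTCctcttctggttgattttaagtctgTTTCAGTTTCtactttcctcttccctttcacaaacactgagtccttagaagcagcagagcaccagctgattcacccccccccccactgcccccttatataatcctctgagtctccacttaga
Oas3: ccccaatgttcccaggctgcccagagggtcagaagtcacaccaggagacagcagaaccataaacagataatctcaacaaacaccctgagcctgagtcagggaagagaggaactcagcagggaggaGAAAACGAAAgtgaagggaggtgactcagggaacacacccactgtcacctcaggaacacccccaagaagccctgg
Oas1a: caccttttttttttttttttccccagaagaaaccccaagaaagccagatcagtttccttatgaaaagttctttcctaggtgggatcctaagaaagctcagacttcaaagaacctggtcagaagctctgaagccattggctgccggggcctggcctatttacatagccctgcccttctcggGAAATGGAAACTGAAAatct
Isg15: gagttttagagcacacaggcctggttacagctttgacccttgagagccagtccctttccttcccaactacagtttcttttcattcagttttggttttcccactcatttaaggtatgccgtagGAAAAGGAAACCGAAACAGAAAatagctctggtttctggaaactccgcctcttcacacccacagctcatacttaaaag
Ifit2: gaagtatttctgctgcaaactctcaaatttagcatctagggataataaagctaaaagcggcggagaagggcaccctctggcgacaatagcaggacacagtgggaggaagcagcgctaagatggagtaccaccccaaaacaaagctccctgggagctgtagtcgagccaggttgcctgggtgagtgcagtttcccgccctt
Ifit1 (chr19:34640689-34640888, plus strand) holds 2 matches, which begin 104 and 85 bases before the start site, and Ifit3 (chr19:34583329-34583528, plus) holds 2, at 156 and 122 bases. Oas3 (chr5:120777660-120777859, minus) has 1 match at 75 bases, Oas1a (chr5:120907526-120907725, minus) 2 overlapping matches at 20 and 14, and Isg15 (chr4:156200819-156201018, minus) 3 overlapping matches at 78, 72 and 66. Ifit2 (chr19:34550494-34550693, plus) has none in this window, and the table lists another start site for it, also without a match. A match describes the letters and is no evidence of binding.

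Eomes-deleted cells were compared in the same way. In KO cells 20 of the 33 genes fell from stage II to IV and 0 rose, where 8.76% of all genes fell and 6.12% rose, with a median of -1.16. In 25 of the 33 each KO stage IV library was below each KO stage II library (20.1% of all genes), and in 1 the reverse held (16.9%). All 16 members that fell in WT cells fell in KO cells, which is 100% of the WT list and 80% of the KO list. These comparisons share no library, but both come from the same fit with a shared estimate of the spread. The share of all genes that fell in both genotypes was not taken, so this overlap is not shown to be particular to the members. Ifit1 had 38.5, 43.0 and 54.2 CPM in KO stage II and 7.18, 6.87 and 5.17 in KO stage IV (fell by 2.82 ± 0.22 on the log2 scale, 7.06-fold, adjusted p = 1.12e-07). Oas3 went from 22.2, 17.9 and 25.7 to 1.74, 1.74 and 2.94 CPM (fell by 3.34 ± 0.32, 10.2-fold, adjusted p = 9.33e-07). In both genes the groups were far apart.

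In KO cells 4 of the 5 OAS and OAS-like genes, 5 of the 6 antiviral effectors and 3 of the 7 modifiers fell, while Ifi35, Parp9, Parp14, Trim30a, Irf9 and Stat2 did not pass the test. Oasl2 ran from 9.34 to 10.8 CPM at KO stage II and from 1.45 to 1.96 at stage IV (fell by 2.57 ± 0.32, 5.93-fold, adjusted p = 2.1e-05). Also lower were Ifit3 (-2.19 ± 0.22), Oasl1 (-2.21 ± 0.23), Oas1a (-2.14 ± 0.23), Rsad2 (-2.80 ± 0.29), Usp18 (-1.44 ± 0.15), Isg20 (-1.81 ± 0.26), Rtp4 (-1.60 ± 0.24), Ifi27l2a (-3.40 ± 0.55) and Herc6 (-0.76 ± 0.15). Ifi44, Bst2, Mx2 and Isg15 fell with adjusted p between 0.00856 and 0.0168. The 4 members called only in the KO comparison were Cmpk2 (fell by 1.16 ± 0.21, adjusted p = 7.64e-04), Ddx58 (by 0.66 ± 0.15, adjusted p = 0.00517), Ifih1 (by 0.98 ± 0.26, adjusted p = 0.0138) and Irf7 (by 0.59 ± 0.17, adjusted p = 0.0251). Leaving out 1 library ended the call of Irf7 for any KO stage II library and for replicate 1 or 3 of KO stage IV (-0.63 to -0.48), and that of Isg15 for replicate 1 of KO stage II and replicate 1 or 3 of KO stage IV (-1.23 to -0.998). It ended that of Mx2 for replicate 1 of KO stage II (-2.70) and replicate 2 of KO stage IV (-2.85), that of Bst2 for KO stage II replicate 1 (-0.93), that of Ifi44 for KO stage IV replicate 2 (-2.98) and that of Ifih1 for replicate 3 of KO stage II (-0.94) and of KO stage IV (-0.92).

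Whether maturation changed these genes differently in the 2 genotypes was tested as the interaction of genotype and stage. No member was called for stage IV against II, where 0.212% of all genes were, with 3 members at an unadjusted p under 0.05 (6.94% of all genes), while DESeq2 called 0. The smallest adjusted p was that of Oasl2 (-1.54 ± 0.44, adjusted p = 0.262). The interactions of stages III and II and of stages IV and III also gave 0 members, where 0.0494% and 0.0283% of all genes were called, with 3 and 7 members at an unadjusted p under 0.05 (12.4% and 10.3% of all genes), while DESeq2 called 0 in each. Their smallest adjusted p belonged to Irf7 (-0.68 ± 0.24, adjusted p = 0.356) and Cmpk2 (-1.16 ± 0.29, adjusted p = 0.276). Without KO stage III replicate 2 these 2 interactions gave 7 members each, and 2443 and 2440 of all genes. The calls in only 1 genotype are therefore not shown to be particular to it.

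**Figure D2:**
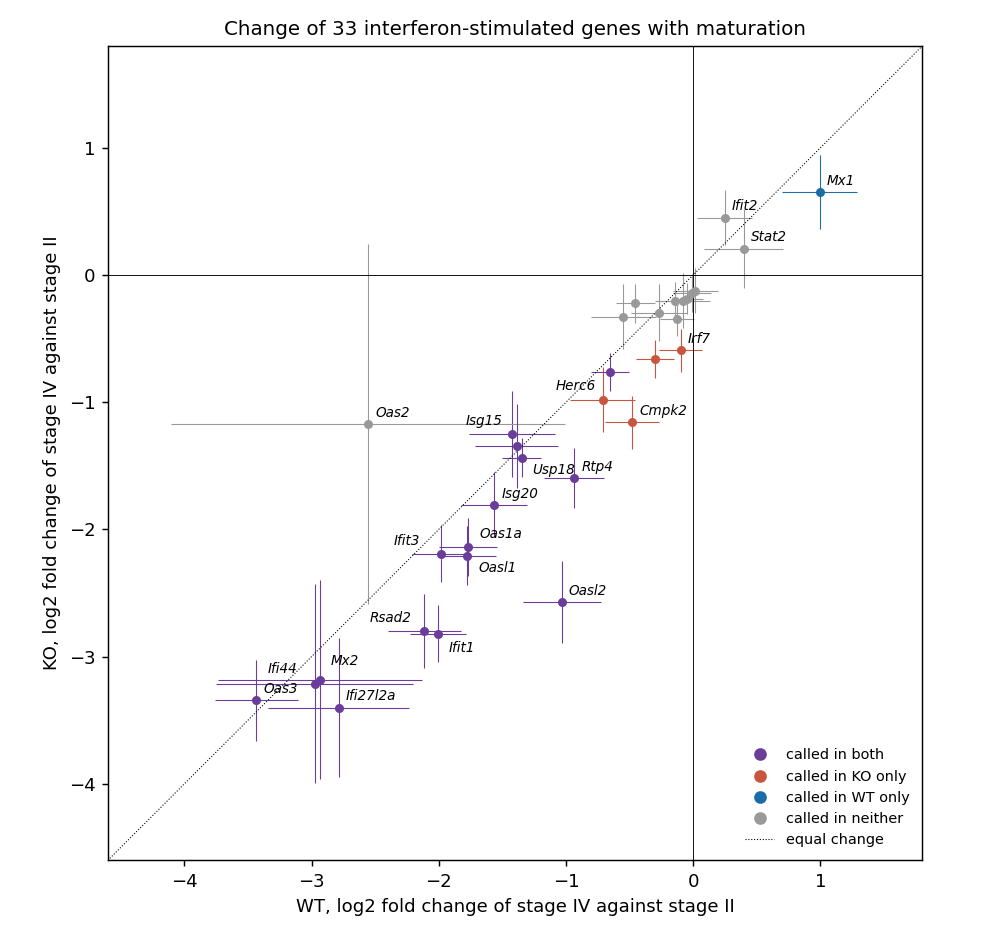
Log2 fold change of stage IV against stage II for each of the 33 genes, WT on the horizontal and KO on the vertical axis, with standard errors as bars and colour for the genotypes in which the gene was called. The 16 genes called in both genotypes lie in the lower left, Mx1 was called in WT only, and Cmpk2, Ddx58, Ifih1 and Irf7 in KO only.

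Fewer members were called in KO against WT. At stage II, 1 of the 33 genes was called higher in KO and 0 lower, where 0.466% of all genes were higher and 0.996% lower. This was Ifit1, with 32.7, 17.3 and 20.4 CPM in WT and 38.5, 43.0 and 54.2 in KO (0.94 ± 0.21 on the log2 scale, 1.92-fold, adjusted p = 0.0274). The 3 KO libraries were above all WT libraries, but WT replicate 1 came close to them. It no longer passed without replicate 2 (0.81) or 3 (0.89) of WT stage II or KO stage II replicate 3 (0.82), and with only the 6 stage II libraries in the fit (0.93, adjusted p = 0.117). Without KO stage III replicate 1 the stage II count was 4 (325 of all genes, against 207 with all libraries), and without KO stage III replicate 2 it was 3 (291).

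Ifit1 was 1 of 24 members with a positive log2 fold change at stage II, and the median over all 33 was 0.15 against -0.01 for all tested genes. It was also 1 of 9 members with an unadjusted p under 0.05, where 8.73% of all genes had one. In 15 of the 33 each KO library was above each WT library and in 0 below, where 11.2% of all genes were above and 8.29% below. These 15 were Irf9, Isg20, Ifit1, Ifit3, Ifih1, Oas1a, Oasl1, Oasl2, Mx1, Rsad2, Rtp4, Ifi27l2a, Xaf1, Ddx58 and Cmpk2. Ifit3 had 21.0, 12.7 and 17 CPM in WT and 25.7, 27.4 and 32.4 in KO (0.75 ± 0.21, adjusted p = 0.124), and Cmpk2 had 6.25, 6.46 and 6.53 against 9.63, 10.4 and 12.1 (0.73 ± 0.21, adjusted p = 0.113). Neither passed the test over all genes, although neither had overlapping groups. Irf9 was at 118 to 135 CPM in WT and 136 to 147 in KO (0.20 ± 0.13, adjusted p = 0.803), Stat2 at 38.0 to 47.0 and 42.0 to 49.1 (0.10 ± 0.31, adjusted p = 0.987), and Irf7 at 221 to 235 and 211 to 242 (-0.05 ± 0.17, adjusted p = 0.988). Isg15, Bst2, Usp18, Zbp1, Eif2ak2 and Ifit2 were among the 9 genes with a negative value, between -0.25 and -0.13.

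At stage III, 7 of the 33 genes were higher in KO and 2 lower, where 5.16% of all genes were higher and 2.75% lower, and the same 9 genes were those without overlap (9.28% of all genes above and 11.2% below). Cmpk2 had 9.90, 8.16 and 8.57 CPM in WT and 26.5, 15.3 and 20.2 in KO (1.22 ± 0.21, 2.32-fold, adjusted p = 0.00293). Ifit1 had 18.2, 17 and 14.4 against 37.6, 30.3 and 34.9 CPM (1.05 ± 0.21, 2.07-fold, adjusted p = 0.0101), and its 3 KO values were close to each other. Ifit3 had 20.2, 14.4 and 14.5 against 39.8, 25.6 and 29.9 CPM (0.96 ± 0.21, 1.94-fold, adjusted p = 0.0177). Isg20 had 4.37, 4.31 and 4.74 against 6.83, 11.2 and 13.6 CPM (1.24 ± 0.25, 2.36-fold, adjusted p = 0.0109), so the nuclease was lowest in KO replicate 1. For Rtp4 the values were 69.0, 49.9 and 54.9 against 165, 72.6 and 138 CPM (1.11 ± 0.23, 2.16-fold, adjusted p = 0.0130). For Xaf1 they were 78.3, 64.8 and 65.0 against 131, 78.6 and 127 CPM (0.69 ± 0.15, 1.61-fold, adjusted p = 0.0156). In Rtp4 and Xaf1 KO replicates 1 and 3, the libraries with few detected genes, stood far above KO replicate 2, which was just above the WT libraries. Ifi27l2a had 1.61, 0.431 and 0.414 CPM (11 to 36 counts) against 2.33, 3.23 and 4.31 (41 to 84 counts), at 2.03 ± 0.52 (4.07-fold, adjusted p = 0.0315).

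The 2 genes that fell in KO at stage III were Irf7 and Ifit2. Irf7 had 269, 279 and 301 CPM in WT and 179, 207 and 126 in KO (fell by 0.73 ± 0.17, 1.66-fold, adjusted p = 0.0226). Ifit2 had 36.3, 37.7 and 40.1 against 20.8, 30.6 and 15.0 CPM (fell by 0.78 ± 0.22, 1.71-fold, adjusted p = 0.0396). Ifit2 thus went the other way from Ifit1 and Ifit3, but its call ended in 15 of the 18 fits that left out 1 library, with log2 fold changes from -0.83 to -0.59. Stat2 had 47.2, 47.9 and 45.4 CPM in WT and 10.4, 45.8 and 22.6 in KO (-0.83 ± 0.31, adjusted p = 0.0988). It was low in the 2 KO libraries with few detected genes and at the WT level in the third. Ifi44 had 0, 140 and 68 counts in KO, low in replicate 1 alone, and Parp9 had 32.8, 70.6 and 36.4 CPM there against 67.1 to 70.5 in WT. Irf9 had 133, 108 and 107 CPM in WT and 161, 119 and 133 in KO, overlapping groups at 0.25 ± 0.13 (adjusted p = 0.218).

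The stage III calls rested on few libraries. With all libraries 9 of 33 members and 1119 of all genes were called. Without WT stage III replicate 1, 2 or 3 the count became 6, 2 and 1 (235, 168 and 144 of all genes), and without KO stage III replicate 1 or 3 it became 4 each (371 and 352). Without KO stage III replicate 2 it became 13, with 4993 of all genes called, so that the members' share was near that of all genes. Cmpk2 passed the test in all 18 fits that left out 1 library. The Ifit1 call ended without WT stage III replicate 3 (0.95). Leaving out replicate 2 or 3 of WT stage III ended the calls of Ifit3, Rtp4, Ifi27l2a and Xaf1, and leaving out any WT stage III library ended those of Isg20 and Irf7. Leaving out KO stage III replicate 1 ended the calls of Ifit3, Rtp4, Xaf1 and Irf7, and leaving out KO stage III replicate 3 those of Ifi27l2a, Xaf1, Isg20 and Irf7. In these fits Ifit3 stood at 0.77 to 0.87, Rtp4 at 0.87 to 1.07, Ifi27l2a at 1.71 to 1.76, Xaf1 at 0.56 to 0.64, Isg20 at 0.99 to 1.28 and Irf7 at -0.78 to -0.58. With both KO libraries of few genes left out Isg20 alone passed (1.32), while Cmpk2 stood at 0.77, Ifit1 at 0.86, Ifit3 at 0.64, Irf7 at -0.46, Rtp4 at 0.32, Ifit2 at -0.32, Xaf1 at 0.17 and Ifi27l2a at 1.998 (adjusted p = 0.223), close to its value with all libraries. In that fit 162 of all genes were called. With only the 6 stage III libraries in the fit 0 of the 33 members and 10 of all genes passed.

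At stage IV 0 of the 33 genes were called in either direction by edgeR, where 0.24% of all genes were higher and 0.268% lower. The count was 4 at an unadjusted p under 0.05 (5.55% of all genes), 0 by DESeq2 and 1 by limma's voom. The median was -0.01. Ifit3 was the 1 member whose KO libraries were all above the WT libraries (6.95% of all genes), with 4.88, 3.46 and 4.53 CPM in WT and 6.34, 5.45 and 6.90 in KO (0.54 ± 0.23, adjusted p = 0.781). Irf7, Oasl1 and Usp18 were the 3 whose KO libraries were all below (6.53%). Irf7 had 176, 227 and 240 CPM in WT and 122, 176 and 143 in KO, the highest KO library lying just under the lowest WT library (-0.54 ± 0.17, adjusted p = 0.353). Ifit1, with 5.66, 5.63 and 6.33 against 7.18, 6.87 and 5.17 CPM, overlapped (0.12 ± 0.22, adjusted p = 1). The values of Irf9 (-0.01 ± 0.13) and Stat2 (-0.09 ± 0.31) were close to 0.

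**Figure D3:**
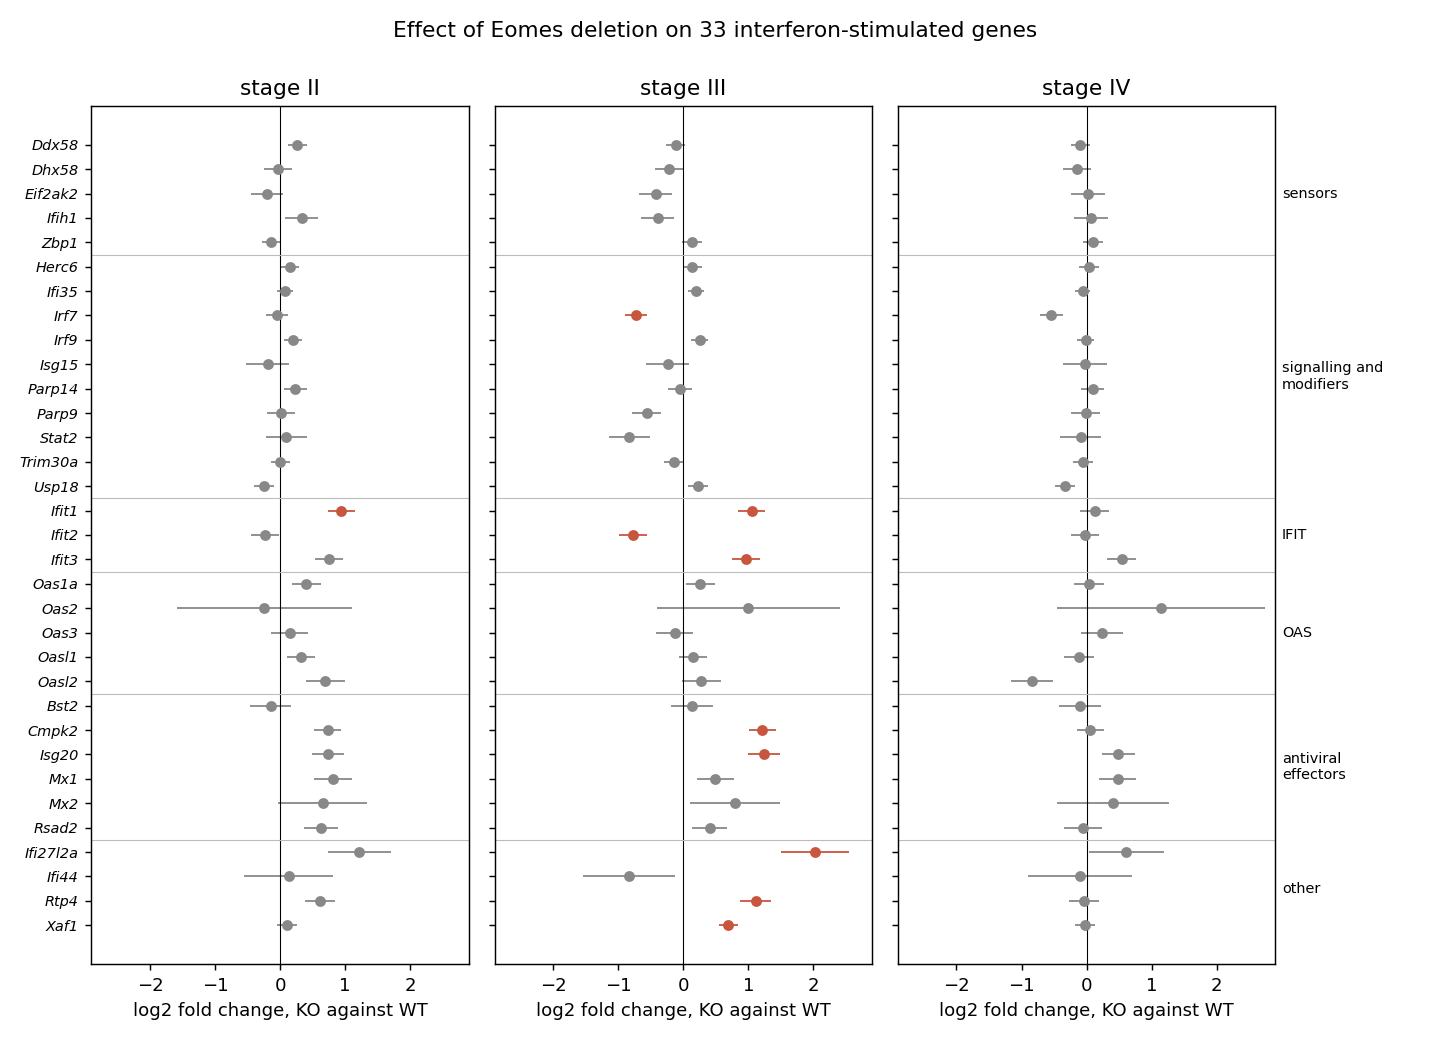
Log2 fold change of KO against WT for the 33 genes at each stage, ordered by role, with standard errors as bars; red marks genes called at an adjusted p under 0.05. One gene was called at stage II (Ifit1), 9 at stage III and 0 at stage IV.

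The libraries of replicate 1 behaved differently in WT cells. In WT stage II replicate 1 had the highest value of its group in 26 of the 33 members, where this held for 39.4% of all genes. The figures were 24 of 33 in WT stage III (38.1% of all genes) and 18 of 33 in WT stage IV (37.7%). In KO they were 13 of 33 at stage II (36%), 10 of 33 at stage III (31.2%) and 13 of 33 at stage IV (38.1%). Mx1 is an example, with 14.9, 7.94 and 7.70 CPM in the 3 WT stage II libraries, 27.5, 17.9 and 15.6 in WT stage III and 26.6, 17.3 and 17.1 in WT stage IV, against 16.8, 17.9 and 19.3 in KO stage II. At stage II WT replicate 1 was close to the KO level of Mx1, while WT replicates 2 and 3 were well below it. At stages III and IV the WT and KO values of Mx1 overlapped, and at stage III KO replicate 1 lay below WT replicate 1.

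Differences were also taken between KO and WT libraries of the same number. On the scale of log2(CPM + 1), the median over the 33 genes at stage II was 0.11, 0.14 and 0.32 in replicates 1, 2 and 3 (0.04, 0.01 and -0.01 over all genes). At stage III it was -0.06, 0.20 and 0.25 (-0.06, 0.01 and -0.03), and at stage IV it was -0.05, -0.01 and 0.09 (0.01, 0.00 and 0.01). At stage III the median of replicate 1 lay apart from the other two, while at stages II and IV that of replicate 2 lay nearer to replicate 1 than to replicate 3. Ifit1 differed by 0.23, 1.26 and 1.36 at stage II and by 1.003, 0.80 and 1.22 at stage III. Mx1 differed by 0.16, 1.08 and 1.22 at stage II and by -0.62, 0.86 and 1.10 at stage III. Ifit1 at stage II and Mx1 at both stages thus differed least, or the other way, in replicate 1. Replicate 1 is the number in which both genotypes expressed Xist and had like levels of Ncr1. Of the 15 members without overlap at stage II, all but Xaf1 (0.09, 0.08 and 0.16) differed least in replicate 1. Examples are Ifit3 (0.28, 1.05 and 0.89) and Rsad2 (0.15, 0.51 and 0.94). The share of all genes that differed least in replicate 1 was not taken, so this is not shown to be particular to the members. Stage III did not repeat it. Cmpk2 at stage III differed by 1.33, 0.83 and 1.15, with replicate 1 the largest. Ifit1, Ifit3, Rtp4 and Xaf1, also called higher at stage III, differed least in replicate 2, and Isg20 and Ifi27l2a in replicate 1. With WT replicates 2 and 3 left out at all stages, which leaves 1 WT library a group, 0 members passed at stage II, III or IV, but only 2, 0 and 1 of all genes did, so these counts say nothing about the members. Ifit1 then stood at 0.59 at stage II and 0.91 at stage III, and Cmpk2 at 1.06 at stage III. Summed immediate early genes were also lower in replicate 1, at 3373 to 4489 CPM in these libraries against 5429 to 12530 in the other 12. The part of sex, of Ncr1 and of this division in the KO results was not tested apart from these fits. The fall from WT stage II to IV compares groups that hold the same division. With WT replicates 2 and 3 left out its count of 17 called members became 3 (149 of all genes, against 2135), and Ifit1 (-2.40), Ifit3 (-1.97) and Oas3 (-3.65) were those that passed.

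**Figure D4:**
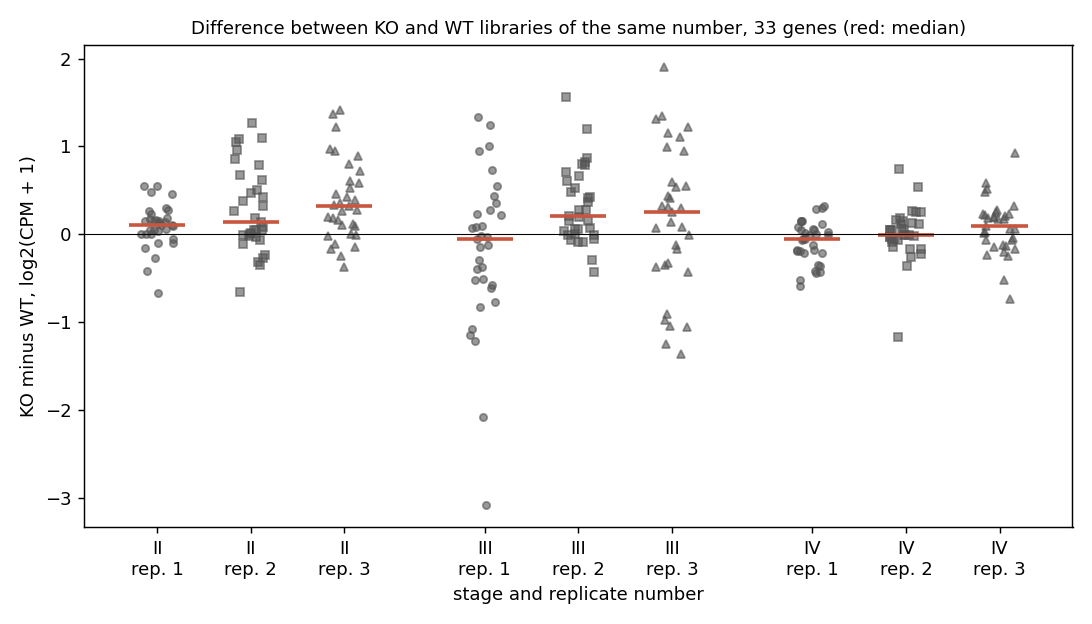
Difference between the KO and the WT library of the same number, as log2(CPM + 1), for each of the 33 genes (points) and their median (red line), by stage and replicate number. The medians at stage II were 0.11, 0.14 and 0.32, those at stage III -0.06, 0.20 and 0.25, and the widest spread is seen in stage III replicates 1 and 3, whose KO libraries had few detected genes.

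The marker sums moved with genotype too. The ILC1 markers summed to 1619 to 1906 CPM in KO stage II, 193 to 324 in KO stage III and 52.1 to 70.6 in KO stage IV, above all WT libraries of the stage, and 5, 9 and 2 of the 9 were called higher in KO. Of all genes 0.466%, 5.16% and 0.24% were called higher at these stages. The B cell markers summed to 726 to 820, 71.9 to 271 and 20.4 to 46.4 CPM, above WT without overlap at stages II and III. At stage II the sum is mostly Cd74, and 6 of the 9 tested B cell markers had a negative log2 fold change (median -1.19), with 1, Cd79b, called higher. At stage III 8 of the 9 had a positive value (median 1.21), and 3 were called higher. The T cell markers summed to 759 to 1035, 559 to 732 and 251 to 270 CPM, and the plasmacytoid dendritic cell markers to 97.2 to 118, 66.2 to 105 and 62.0 to 73.5, all overlapping with WT. Gene by gene, 6 of the 7 tested plasmacytoid dendritic cell markers had a positive log2 fold change at stage III (median 1.32, 1 called higher). At stage IV 6 of the 7 were positive (median 1.08, 0 called), and at stage II 4 of the 7 (median 0.0003, 0 called). The myeloid markers summed to 329 to 415 CPM in KO stage II, below all WT libraries of the stage, and to 661 to 804 in stage III and 440 to 501 in stage IV, above them. Tnfsf10, one of the ILC1 markers, is itself known to respond to interferon. The part of these transcripts in the KO differences of the members was not tested.

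The pathway upstream of the 33 genes was described by 27 genes, of which 25 could be tested. From WT stage II to IV 2 rose and 7 fell, where 5.26% of all genes rose and 9.82% fell. Ifnar2, a chain of the type I receptor, fell by 0.61 ± 0.11 on the log2 scale (adjusted p = 0.00101), while the other chain, Ifnar1, was at -0.13 (adjusted p = 0.543). The kinase Jak2 fell by 0.68 ± 0.18 (adjusted p = 0.0154). Irf8, a transcription factor of the same family as Irf9, rose by 1.74 ± 0.21 (adjusted p = 1.63e-05), and Ifngr1, a chain of the interferon gamma receptor, rose by 0.80 ± 0.11. In KO cells 4 rose and 7 fell from stage II to IV, where 6.12% of all genes rose and 8.76% fell. Among those that rose was Irf8 (by 2.54 ± 0.21).

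In KO against WT, 0 of the 25 pathway genes rose and 2 fell at stage II, namely the kinase Jak1 (fell by 0.58 ± 0.12, adjusted p = 0.0166) and Irf8 (by 0.92 ± 0.20, adjusted p = 0.0267). At stage III 3 rose, the phosphatase Ptpn6 (0.78 ± 0.10), the adaptor Tmem173 (STING, 0.42 ± 0.12) and the DNA sensor Cgas (0.59 ± 0.14), and 3 fell, Jak1 (by 0.45 ± 0.12), Irf8 (by 0.89 ± 0.20) and the adaptor Mavs (by 0.49 ± 0.11). At stage IV Ptpn6 rose (0.91 ± 0.10, adjusted p = 1.92e-04) and 0 fell. Of all genes 0.466% rose and 0.996% fell at stage II, 5.16% and 2.75% at stage III, and 0.24% and 0.268% at stage IV.

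Targets of interferon gamma, of which 16 of 19 could be tested, showed a like pattern over stages. From WT stage II to IV 9 fell and 0 rose, in KO 12 fell and 0 rose. Of all genes 9.82% fell and 5.26% rose in WT, and 8.76% fell and 6.12% rose in KO. The GTPase Tgtp1, which acts against intracellular parasites, fell in WT from 5.81 to 11.9 CPM to 0 to 0.249 (log2 fold change of -6.33 ± 0.58, adjusted p = 9.43e-07). In KO against WT 1 rose at stage II (Igtp, 0.56 ± 0.13, adjusted p = 0.0483), 3 at stage III (Irgm1, Tgtp1 and Tgtp2) and 0 at stage IV, and 0 fell at any stage. Of all genes 0.466%, 5.16% and 0.24% rose at stages II, III and IV. Of 32 further interferon-induced genes, 12 fell from WT stage II to IV (9.82% of all genes) and 16 from KO stage II to IV (8.76%), and 0 rose in either. In KO against WT 0 rose and 0 fell at stage II, with 8 at an unadjusted p under 0.05 (8.73% of all genes). At stage III the membrane proteins Ifitm1, Ifitm2 and Ifitm3 rose and Sp100 and Shisa5 fell, and at stage IV Shisa5 fell. Of all genes 5.16% rose and 2.75% fell at stage III, and 0.268% fell at stage IV. Ifitm3 had 0.936, 1.90 and 1.24 CPM in WT stage III and 5.98, 15.3 and 11.7 in KO (3.00 ± 0.52, adjusted p = 0.00356). Ifnb1, Tlr9 and Cxcl9 did not pass the filter on low counts, and Gbp5 and Gbp6 were not analysed here.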

How the data were processed

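RNA of 18 libraries was sequenced. STAR 2.0.4 and featureCounts 1.4.5 (Subread) are named, per the submitters' processing notes. The sources used here do not give build, strand setting or read type. Each deposited table holds a raw count, a CPM and an RPKM per Ensembl gene, per the file headers. The authors' CPM and RPKM are rescaled from the deposited count, and only the counts were used. Symbols were found for 40254 of 41388 IDs through RefSeq and GENCODE M21 (GRCm38). Of the IDs 40244 overlapped their M21 position, all 33 members among them. Without the strand setting, reads of exons that overlap on opposite strands cannot be told apart (Irf7 and Phrf1, Ifi35 and Gm11626, Oasl1 and Gm13822, Dhx58 and Dhx58os, Parp9 and Dtx3l, Eif2ak2 with Gm26637 and n-R5s29). Irf9 and Rnf31 share exon bases on the same strand, so a strand setting would not separate them.

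The test was the quasi-likelihood test of edgeR 4.0.16 (R 4.3.3) after filterByExpr and TMM scaling, fitted to all 18 libraries with 6 group means and a prior count of 0.125. Genes with an adjusted p under 0.05 (Benjamini-Hochberg over 14156 genes) were called. Adjusted p-values in the text are from this test unless another tool is named. Standard errors are the absolute log2 fold change over the square root of F, an approximation. The script was tested on simulated data. CPM values in the text are TMM-scaled. Nothing in the labels says that libraries came from separate mice, so p-values measure the spread between libraries, and PCR copies of a molecule are counted as reads of their own.

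Library values are given for members called in KO against WT or in WT stage IV against II (the 14 with the smallest adjusted p) and for Irf7, Irf9 and Stat2, and non-members come from lists. Library values of Mx1 and Parp9 and counts of Mx2 and Ifi44 are given beyond this rule and were chosen after their values were seen, as was the level of Ncr1 beside Xist. Members and lists were chosen with earlier results of these data known. Mb21d1 was matched as Cgas. Alternatives were DESeq2 1.42.0 and its size factors, limma 3.58.1 voom with quality weights, no filter, the replicate block, fewer libraries, each library left out, and 2 choices made after seeing the data: only libraries with Xist above 5 CPM, and without the 2 libraries with most detected genes. Whether replicate numbers pair the samples was checked by correlating deviations from group means. Within stages, 6 of 9 same-number KO and WT pairs were over 0.1 (-0.05 to 0.30). Over all groups the median was 0.21 for same-number pairs and -0.09 for other pairs, so same-numbered libraries tended to deviate together. Since the labels do not tie the numbers to experiments, the main fit holds no replicate block, and the block is given as an alternative.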

Additional observations from a re-analysis of the deposited data

How the results depend on the processing

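Of 67 results with values under alternatives, 57 were log2 fold changes of members called in the main fit, and of these 0 reversed. The others were counts of called members, which cannot reverse. Of the 57 calls of a member in a contrast, 32 kept their side of the threshold in each fit that left out 1 library and 16 in each setting. Counts of called members moved with the setting as follows, with the count over all genes in brackets, which often moved alike. For KO against WT at stage II, 1 (207) became 2 (368) with DESeq2, 9 (1061) with voom, 4 (623) with no filter, 2 (260) with the replicate block, 5 (463) without KO stage III replicates 1 and 3, 0 (2) with only libraries above the Xist threshold, and 0 to 4 without 1 library. At stage III, 9 (1119) became 0 (10) with only the contrast's libraries, 1 (162) without KO stage III replicates 1 and 3, 0 (0) above the Xist threshold, and 1 to 13 without 1 library. At stage IV, 0 (72) became 1 (358) with voom, and leaving out 1 library gave 0. For WT stage III against II, 1 (420) became 4 (684) with DESeq2, 7 (1830) with voom, 3 (734) with no filter, 2 (1014) with only the contrast's libraries, 3 (909) without KO stage III replicates 1 and 3, 0 (19) above the Xist threshold and 0 to 3 without 1 library. For WT stage IV against III, 9 (449) became 21 (2526) with voom, 18 (1459) with only the contrast's libraries, 16 (1022) without KO stage III replicates 1 and 3, 0 (13) above the Xist threshold and 7 to 13 without 1 library. WT stage IV against II, with 17 (2135), gave 3 (149) above the Xist threshold and 12 to 19 without 1 library, and KO stage IV against II, with 20 (2106), gave 16 to 20. The interaction of stages III and II, with 0 (7), gave 1 (290) with no filter and 0 to 7 without 1 library, that of IV and III, with 0 (4), gave 1 (331) with no filter and 0 to 7, and that of IV and II, with 0 (30), gave 2 (274) with voom, 1 (1671) with no filter and 0 without 1 library.

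With the replicate block the counts were 9 (1770) for KO against WT at stage III, 19 (2401) for WT stage IV against II and 21 (2377) for KO stage IV against II. As a hint from the data, 12 of 18 libraries correlated best with their own number in the other genotype. Above the Xist threshold each WT group has 1 library, assumed to vary like the other groups. Several settings hold fewer libraries than the main fit, and the cause of the moved counts was not tested. Depth limits Oas2, Mx2 and Ifi27l2a, which have under 100 counts in most libraries.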
